A study of Mus musculus with 26 samples.

Results

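A stretch of mouse chromosome 3 from position 91000000 to 119000000 (build mm10) held 149 expressed genes, and in gastruloids of the InsDel7to10 line the RNA of most of them was higher than in every other line of the series. Gastruloids are grown from aggregated mouse embryonic stem cells, lengthen along an axis and hold tissues of the embryonic trunk and tail. The 149 genes were chosen by position and level: their locus lay wholly inside the stretch and their mean over the 26 libraries was at least 5 CPM (a gene's counts scaled to a common library total). Of the 809 genes listed in the stretch, 232 had 0 counts in all 26 libraries and 428 had counts but a mean under 5 CPM. The 149 genes were part of 10637 genes that reached that mean in the whole series. The bounds of the stretch were drawn from the difference between InsDel7to10 and the other lines, so that difference is given here as a description, and nothing is supported with it.

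All lines carry HoxB Del/Del(i9-13). The InsDel7to10 line further carries Ins(CBS5-10):Del(CBS7-10) and was sequenced in 2 libraries at 120h after aggregation. Of the other 7 lines, InsDel5to10 carries Ins(CBS5-10):Del(CBS5-10) (2 libraries at 120h), and InsDel8to10 carries Ins(CBS5-10):Del(CBS8-10) (1 library at 120h and 1 at 144h). InvDel7to10 carries both Inv(CBS5-10) and Del(CBS7-10) on Ins(CBS5-10) (1 library at 120h and 1 at 144h), so it shares Del(CBS7-10) with InsDel7to10. InvClone1 and InvClone2 are clone 1 and clone 2 of Ins(CBS5-10):Inv(CBS5-10). InvClone1 has 1 library at 96h, 4 at 120h, 2 at 144h and 1 at 168h, and InvClone2 has 2 at 120h. Ins carries Ins(CBS5-10) (3 libraries at 120h and 1 at 144h), and Del carries no edit beyond the shared one (3 at 120h and 1 at 144h). HoxB lies on another chromosome than the genes described here. Separate cultures of the replicates are not stated, nor whether the lines other than InvClone1 and InvClone2 are 1 clone each.

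Total counts ran from 18746411 to 37716547 per library (median 22616412). The labels give each library 1 of 4 library names: ISML_first (4 libraries), ISML_second (10), ISML_third (10, with both of InsDel7to10) and TruSeq_second (2). The libraries that stood apart from the rest were all of InvClone1: its 4 ISML_third libraries, replicate 2 at 144h with 0.0864% of its counts on mitochondrial genes, against 0.587% to 1.51% in the others, and replicate 2 at 120h, in which 54.8% of listed genes were detected, against 37.5% to 43.4%. Results that rest on these 6 libraries are given with and without them. In summed level the trunk and tail markers that check the tissue, T, Tbx6 and Cdx2 among them, had 1549 and 1202 CPM in InsDel7to10, against 551 to 1300 CPM (median 1069) in the other 24 libraries. The somite gene Meox1 made up 706 and 782 CPM of that sum in InsDel7to10, and the 14 markers had log2 ratios of InsDel7to10 to the others of -1.56 (Pax6) to 1.32 (Tcf15), with a median of 0.01.

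A chromosome stretch is not a pathway. The 149 genes include parts of machines that every cell uses, such as the proteasome, the spliceosome and the mitochondrial ribosome. They also include genes with roles in development, such as the receptor gene Notch2 and the planar cell polarity genes Celsr2 and Vangl1. Neighbouring genes are normally controlled by their own promoters and enhancers, and a change in the number of copies of a chromosome segment is known to move many neighbours together. No DNA measurement was used here, and copy number was not tested.

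The size of the shift was first set out per gene, as the log2 ratio of the mean normalised CPM in the 2 InsDel7to10 libraries to the mean in the 24 others. CPM here and below was scaled by the trimmed mean of M values (TMM), and a positive shift means higher in InsDel7to10. The median shift of the 149 genes was 0.58, which is 1.49-fold, and the middle of the distribution was narrow, with the 25th percentile at 1.37-fold and the 75th at 1.61-fold. Taken alone, InsDel7to10 replicate 1 gave a median of 0.58 and replicate 2 a median of 0.61. The 10488 other genes of the series that reached 5 CPM had a median shift of 0.01, with percentiles 25 and 75 at -0.15 and 0.12. A gene is said below to follow the shift where it reached the midpoint between 0 and the median, 0.29. That was the case for 129 of the 149 genes, 12 lay between 0 and the midpoint and 8 lay at 0 or less. Of the 10488 other genes 6.10% reached the same value, and of the 351 other genes of chromosome 3 6.55% did.

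The shift was in both InsDel7to10 libraries and in no other library of the series. The 149 genes took 1.61% and 1.67% of all counts in InsDel7to10 (mean 1.64% ± 0.04, SD, n = 2), against 1.02% to 1.177% in the 24 others (mean 1.11% ± 0.03, SD, n = 24). The ratio of the means was 1.48. For 86 of the 149 genes both InsDel7to10 libraries lay above all 24 others. The same was true of 1.01% of the 17769 genes tested in the series, 180 genes in all, so the stretch held 86 of these 180. No gene of the 149 had both InsDel7to10 libraries below all others, where 0.692% of the genes tested did. Without the 6 libraries that stood apart, 108 genes lay above all others. Fewer libraries can only raise this count, and the share of all genes in that setting is not given here.

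**Figure D1:**
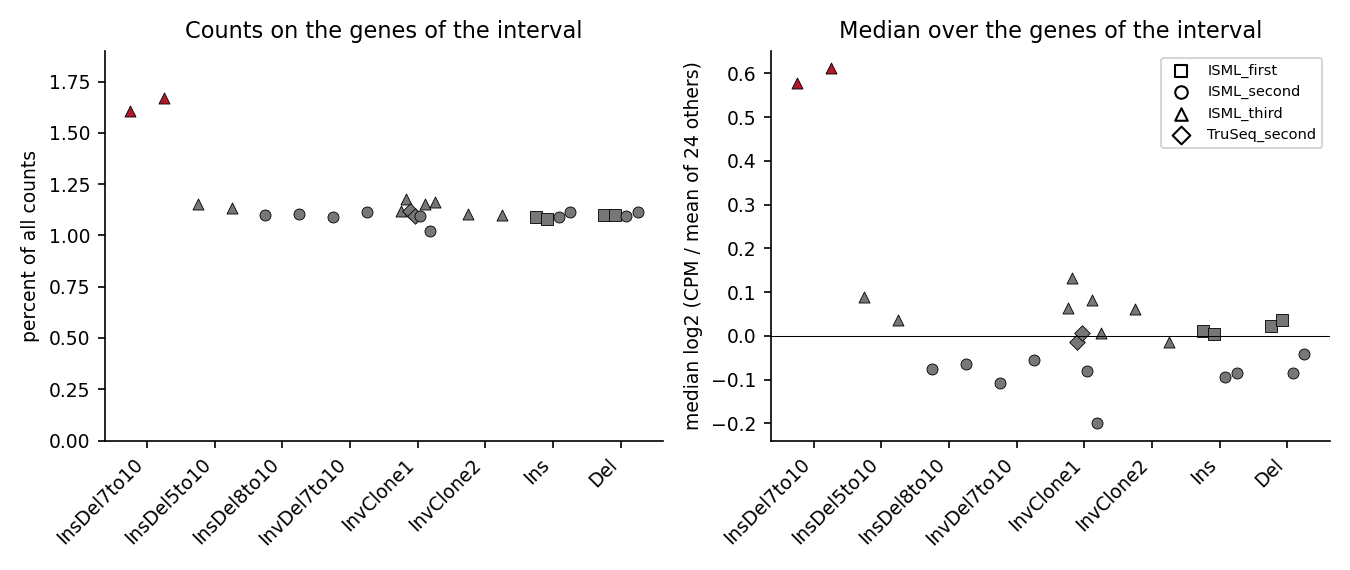
Share of all counts that fell on the 149 genes (left, percent) and median over the 149 genes of the log2 ratio to the mean of the 24 libraries outside InsDel7to10 (right), with 1 point per library by line and the marker showing the library name. Both InsDel7to10 libraries lie at 1.61% and 1.67% on the left and at 0.58 and 0.61 on the right, while the others lie between 1.02% and 1.177% and between -0.20 and 0.13.

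The library name moved with these scores on a smaller scale. The median log2 ratio over the 149 genes was -0.01 to 0.13 in the 8 other ISML_third libraries, -0.20 to -0.04 in the 10 ISML_second libraries, 0.00 to 0.04 in the 4 ISML_first libraries and -0.01 to 0.01 in the 2 TruSeq_second libraries. Within the ISML_third libraries at 120h, where InsDel7to10 stands against 5 libraries of InsDel5to10, InvClone1 and InvClone2, the median shift was 0.55. There 133 of the 149 genes followed the shift, and 112 lay above all 5, against 5.01% of the 17769 genes tested. InvDel7to10, which also carries Del(CBS7-10), had median log2 ratios of -0.11 at 120h and -0.06 at 144h. With all libraries both lay inside the range of the lines without that deletion. Without the 6 libraries that stood apart, InvDel7to10 at 120h was the lowest library, just under Ins replicate 3 at 120h (-0.09).

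Plotted along chromosome 3, the shift formed a plateau with steep sides. The running median over 11 consecutive genes of 5 CPM or more crossed the midpoint at 94.5 Mb and again at 118.7 Mb, 24.3 Mb apart. The edges were placed where the running median fell under the midpoint, so every window between them reached it by construction. These 144 windows lay between 0.36 and 0.71. Of 9931 windows on the other autosomes and the X, 3 reached the midpoint, all on chromosome 8, and the highest stood at 0.30. Median shifts of whole other chromosomes ran from -0.05 to 0.06. Within the stretch the plateau was flat over most of its length. The median shift was 0.59 over 59 genes at 91 to 98 Mb, 0.60 over 32 genes at 98 to 105 Mb, 0.56 over 41 genes at 105 to 112 Mb and 0.49 over the 17 genes above 112 Mb.

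**Figure D2:**
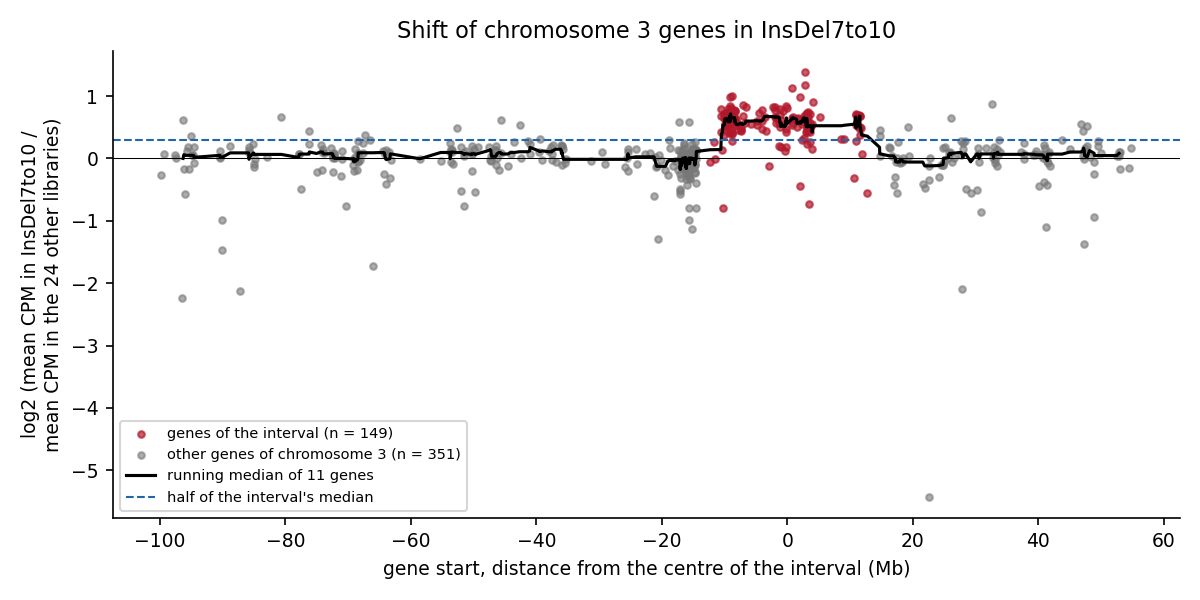
Log2 ratio of mean CPM in InsDel7to10 to mean CPM in the 24 other libraries for each chromosome 3 gene of 5 CPM or more (points, 149 genes of the stretch and 351 others), by distance of the gene's start from the centre of the stretch in Mb. The running median of 11 genes (line) stays near 0 along the chromosome, rises above the midpoint (dashed) within the stretch and falls back on its other side.

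The lower edge could be placed between named genes. The last expressed gene before the stretch was Chtop, which encodes an mRNA export and chromatin protein and starts at 90.5 Mb. It had 278 and 261 CPM in InsDel7to10, against 190 to 291 CPM (median 254) in the others, a shift of 0.11. No gene of 5 CPM or more lay in the next 2 Mb. Of the 21 listed genes of epidermal differentiation on chromosome 3 none reached 5 CPM. The first 3 genes of the stretch did not follow: the pseudogenes Gm4202 (-0.06) and Rplp0-ps1 (0.27), and S100a11 (-0.00), which encodes a small calcium-binding protein. The next, Tdrkh at 94.4 Mb, acts in the piRNA pathway of the germ line and had 46.9 and 44.9 CPM in InsDel7to10, against 12.2 to 46.9 CPM (median 26.8) in the others, a shift of 0.79. Only InvClone1 at 168h overlapped with its InsDel7to10 values. Between S100a11 and Tdrkh lay genes under the minimum that went opposite ways. S100a10, at 93.6 Mb and 3.25 CPM, had a shift of -1.30. The thioesterase gene Them4, at 94.3 Mb and 3.70 CPM, had a shift of 0.51. From Tdrkh on, Mrpl9, a mitochondrial ribosomal protein gene, was at 0.42 and Snx27, an endosomal sorting gene, at 0.68. Of the first 3 genes, Gm4202 is a weak mark of the edge. It had 32.4 and 4.74 CPM in InsDel7to10, and its shift was 1.77 against the 5 ISML_third libraries at 120h.

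The upper edge was less sharp, and its place changed more with the libraries compared than that of the lower edge. Mfsd14a and Slc35a3, both encoding membrane transporters, had shifts of 0.68 and 0.67 at 116.6 and 116.7 Mb. Further on, Frrs1 at 116.9 Mb (0.07) and the sorting nexin gene Snx7 at 117.8 Mb (-0.56) did not follow. Outside the stretch, the pseudogene Gm4332 and Ptbp2, a splicing regulator gene of the nervous system, both at 119.7 Mb, stood at 0.45 and 0.36. Against the 5 ISML_third libraries at 120h these 2 genes stood at 0.02 and 0.16, and the upper edge then fell at 116.8 Mb, before Frrs1. With InsDel7to10 replicate 1 or replicate 2 alone the lower edge lay at 93.97 and 94.56 Mb and the upper edge at 116.8 and 118.7 Mb.

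The 3 proteasome subunit genes of the stretch show what the shift looks like gene by gene. The proteasome is the protein-degrading machine of the cell, a barrel of alpha and beta subunits with regulatory caps, whose subunits are made in fixed proportions. Psmb4 (ENSMUSG00000005779, chromosome 3, 94884092 to 94886961), a beta subunit, had 334.6 and 271 CPM in InsDel7to10, against 132 to 250 CPM (median 181) in the others. Both InsDel7to10 libraries lay above all 24 others, and the shift was 0.71. Psma5 (ENSMUSG00000068749, 108256925 to 108279974), an alpha subunit, had 185 and 215 CPM in InsDel7to10, against 80.0 to 184 CPM (median 130) in the others, a shift of 0.66 without overlap. Psmd4 (ENSMUSG00000005625, 95032693 to 95042614), the ubiquitin receptor of the cap, had 221 and 196 CPM in InsDel7to10, against 94.8 to 249 CPM (median 141) in the others. InvClone1 replicate 2 at 144h, with 249 CPM, was the library that reached the InsDel7to10 range, and the shift was 0.50. The 32 proteasome subunit genes elsewhere in the genome had a median shift of 0.06 and a range of -0.25 to 0.19, and none followed. Their summed level was 6164 and 6362 CPM in InsDel7to10, inside the range of 5077 to 7564 CPM in the others.

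**Figure D3:**
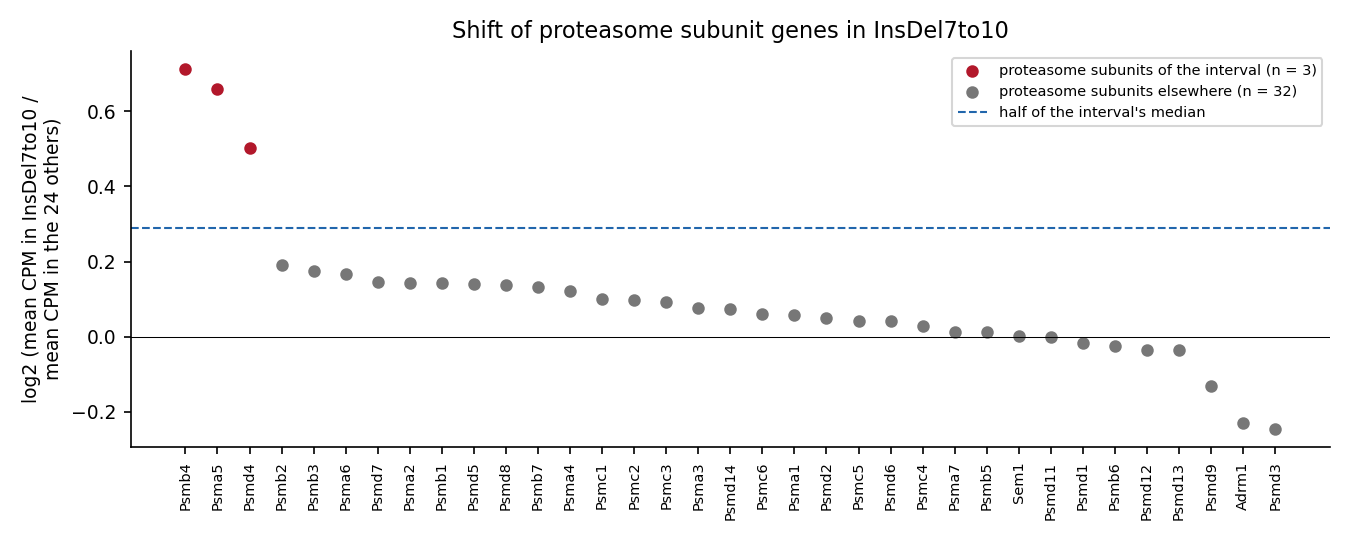
Log2 ratio of mean CPM in InsDel7to10 to mean CPM in the 24 other libraries for the 3 proteasome subunit genes of the stretch and the 32 elsewhere. The 3 of the stretch lie between 0.50 and 0.71 and the 32 others between -0.25 and 0.19, under the dashed midpoint.

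Of the listed genes of transcription and chromatin, 21 of the 21 among the 149 followed, with a median shift of 0.61 and a range of 0.38 to 0.73. With InsDel7to10 replicate 2 alone, the chromatin remodelling gene Vps72 stood at 0.14, under the midpoint. Of all 149 genes 86.6% followed, so counts near that share, here and in the lists below, are not read as traits of a role. Pogz, a zinc finger gene linked to heterochromatin, was among the genes with the least spread. It had 242 and 286 CPM in InsDel7to10, against 129 to 183 CPM (median 161) in the others. Arnt, which encodes the partner subunit of hypoxia-inducible factors, had 108 and 122 CPM in InsDel7to10, against 52.5 to 80.5 CPM (median 69.7) in the others. Setdb1, a histone H3 lysine methyltransferase gene, had 232 and 273 CPM in InsDel7to10, against 141 to 230 CPM (median 159) in the others. None of the 3 overlapped. Anp32e, a histone chaperone gene and among the highest of the stretch, had 987 and 1045 CPM in InsDel7to10, against 438 to 861 CPM (median 597) in the others.

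Of the splicing and RNA-binding genes 15 of 16 followed, with a median shift of 0.52. Rbm8a, a core part of the exon junction complex, had 354 and 325 CPM in InsDel7to10, against 186 to 277 CPM (median 204) in the others. The exception was Prpf38b, a splicing factor gene, with 124 and 122 CPM in InsDel7to10, against 90.1 to 138 CPM (median 113) in the others, a shift of 0.15. Among the 38 genes with the least spread between the other libraries, Prpf38b was the only one that did not follow. Its neighbours Stxbp3 and Fam102b had shifts of 0.52 and 0.55.

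Translation and mitochondrial genes followed in 9 of 10 cases, with a median of 0.53. Mrps21, a mitochondrial ribosomal protein gene, had 66.6 and 71.0 CPM in InsDel7to10, against 30.5 to 51.2 CPM (median 37.7) in the others. Atp5pb, a subunit of the mitochondrial ATP synthase, had 436 and 367 CPM in InsDel7to10, against 195 to 356 CPM (median 239) in the others. Both were above all other libraries. Of the metabolism and transport genes 17 of 19 followed, with a median of 0.61. Pip5k1a, a phosphoinositide kinase gene, had the smallest spread of all 149 genes. It had 96.9 and 97.9 CPM in InsDel7to10 (mean 97.4 ± 0.71, SD, n = 2), against 54.5 to 68.4 CPM in the others (mean 62.6 ± 3.54, SD, n = 24), which is 1.56-fold. Slc16a1, a lactate and pyruvate transporter gene, did not follow, with 313 and 255 CPM in InsDel7to10, against 188 to 365 CPM (median 249) in the others.

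Genes of survival, cell cycle and trafficking followed in 16 of 18 cases, with a median of 0.67. Mcl1, an anti-apoptotic gene of the Bcl2 family, had 265 and 301 CPM in InsDel7to10, against 156 to 217 CPM (median 173) in the others. Signalling and adhesion genes were the least uniform group, with 12 of 18 at or above the midpoint and a range of -0.80 to 0.86. Notch2 (ENSMUSG00000027878, 98013537 to 98150361), a receptor of the Notch pathway, had 346 and 342 CPM in InsDel7to10, against 144 to 237 CPM (median 190) in the others. Nras, a small GTPase of growth factor signalling, had 442 and 581 CPM in InsDel7to10, against 225 to 389 CPM (median 284) in the others. Gnai3, an inhibitory G protein subunit, had 477 and 533 CPM in InsDel7to10, against 206 to 391 CPM (median 291) in the others. These 3 genes did not overlap with any other library.

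The largest shift belonged to Gstm5 (ENSMUSG00000004032, 107895820 to 107898686), a glutathione transferase gene of the mu class, whose enzymes conjugate glutathione to reactive compounds. It had 52.6 and 70.6 CPM in InsDel7to10, against 11.1 to 39.0 CPM (median 22.9) in the others, a shift of 1.39 or 2.61-fold. Against the 5 ISML_third libraries at 120h, which held 19.3 to 39.0 CPM, its shift was 0.96. The other 3 mu class genes among the 149 followed as well, Gstm2 at 0.71, Gstm4 at 0.64 and Gstm1 at 0.42. Genes of this class are related in sequence, and whether the counting split reads between them was not tested. The next largest shifts were those of 4933431E20Rik (1.181), which overlaps the start of Gstm5, Inka2 (1.12), an inhibitor of the kinase PAK4, Gm17690 (1.00), which overlaps the start of Sf3b4, Car14 (0.98), a membrane carbonic anhydrase, and AI504432 (0.98). The loci of 88 of the 149 genes overlapped another listed gene, and the same share over other genes is not given here. The strand setting of the counting is not known from the labels. The 61 genes that overlap no other listed gene had a median shift of 0.56.

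**Figure D4:**
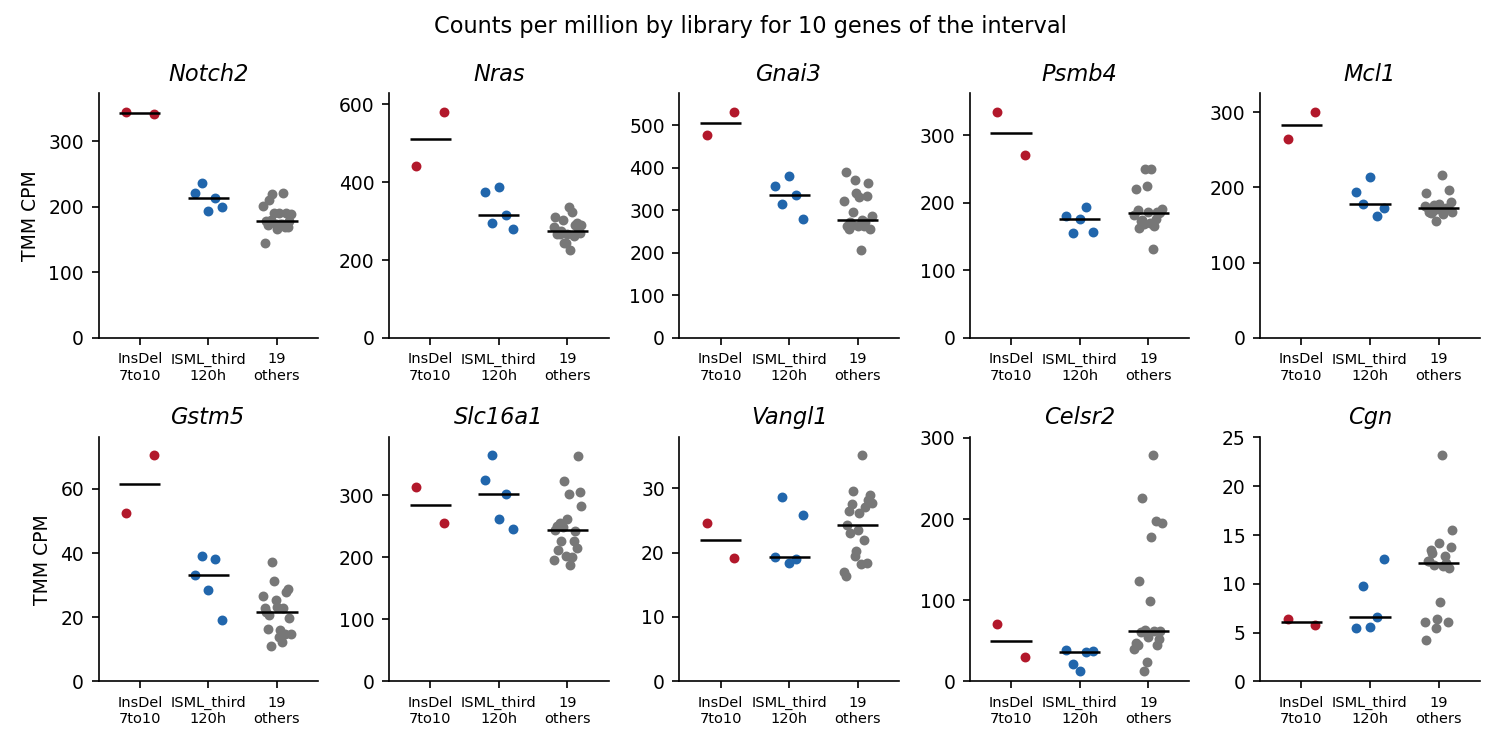
Normalised CPM per library of 10 genes of the stretch in InsDel7to10 (2 libraries), the 5 other ISML_third libraries at 120h and the 19 remaining libraries, with a bar at each median. Notch2, Nras, Gnai3, Psmb4, Mcl1 and Gstm5 lie above every other library in InsDel7to10, and Slc16a1, Vangl1, Celsr2 and Cgn lie within the range of the others.

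The 8 genes at 0 or less were Cgn, Celsr2, Snx7, Kcna2, S1pr1, Vangl1, Gm4202 and S100a11. Most of them varied strongly between the other libraries. The SD of log2 CPM among the 24 others was 0.26 to 1.86 in these 8 genes, against a median of 0.23 over all 149. When the 149 genes were ordered by that SD, 37 of the 38 least variable ones followed, 36 of the next 37, 30 of the next 37 and 26 of the 37 most variable ones. Genes above all other libraries numbered 34, 23, 19 and 10 in the same order. A small spread among the 24 others makes it easier to lie above them all, so nothing is read from that decline. For several of the variable genes the choice of libraries set the sign.

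Celsr2 (ENSMUSG00000068740, 108390850 to 108415552), an atypical cadherin of planar cell polarity, had 70.8 and 30.0 CPM in InsDel7to10, against 13.2 to 279 CPM (median 53.2) in the others, a shift of -0.74. The 5 ISML_third libraries at 120h held 13.3 to 39.2 CPM, and against them the shift was 0.77. Kcna2, a voltage-gated potassium channel gene, had 3.78 and 4.55 CPM in InsDel7to10, and its shift of -0.44 rested on the 92.0 CPM of InvClone1 at 96h. Without that library the shift was 1.14, and without the 6 libraries that stood apart it was 0.99. S1pr1, a sphingosine-1-phosphate receptor gene of vessels, had 6.23 and 1.89 CPM in InsDel7to10, against 0.931 to 16.2 CPM (median 4.05) in the others. Its shift was -0.32, or 0.71 against the 5 ISML_third libraries at 120h. The endothelial and blood markers summed to 43.1 and 7.31 CPM in InsDel7to10, against 6.56 to 164 CPM (median 69.9) in the others, and differed between the replicates in the same direction as S1pr1. Their part in the S1pr1 value was not tested.

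Cgn (ENSMUSG00000068876, 94760068 to 94786515), the tight junction gene of cingulin, had 6.39 and 5.76 CPM in InsDel7to10, against 4.25 to 23.2 CPM (median 11.9) in the others, a shift of -0.80. It was -0.39 against the 5 ISML_third libraries at 120h. The 12 endoderm markers, which include the epithelial genes Epcam and Cdh1, summed to 114 and 96.5 CPM in InsDel7to10, against 133 to 754 CPM (median 421) in the others and 222 to 612 CPM in the 5 ISML_third libraries at 120h. Foxa2, a defining endoderm gene, had 1.56 and 0.290 CPM in InsDel7to10, against 0.619 to 24.4 CPM (median 7.98) in the others. Of the 12 markers, Spink1 was the only one with 0 counts in both InsDel7to10 libraries. The part of endoderm cells in the Cgn value was not tested. In bulk samples fewer cells of a type and less RNA per cell cannot be told apart.

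A total of 13 genes stayed under the midpoint against both sets of libraries. Of these Rplp0-ps1 and S100a11 lie at the lower edge and Frrs1 and Snx7 at the upper edge, and the other 9 are Tuft1, Cgn, Mtmr11, Vangl1, Olfml3, Magi3, Slc16a1, Prpf38b and Dph5. Vangl1, a planar cell polarity gene, had 24.6 and 19.2 CPM in InsDel7to10, against 16.4 to 35.1 CPM (median 23.9) in the others, with shifts of -0.12 and, within ISML_third at 120h, -0.02. The neighbouring Tspan2 had a shift of 0.82. Snx7 had 4.50 and 2.95 CPM in InsDel7to10, against 3.69 to 8.05 CPM (median 5.49) in the others, and a shift of -0.56 against both sets. The genes next to the minimum of 5 CPM behaved in different ways, with shifts of 0.58 for Sv2a at 4.98 CPM and 0.47 for BC028528 at 4.80 CPM, both left out, and -0.32 for S1pr1 at 5.09 CPM and -0.56 for Snx7 at 5.38 CPM, both kept. Of the 42 genes of the stretch with a mean of at least 1 and under 5 CPM, 21 reached the midpoint, and their median shift was 0.30.

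The InsDel7to10 replicates differed for a few genes. The typical gene differed between them by 0.19 on the log2 scale, and 6 genes differed by at least 1, all of them higher in replicate 1: Gm4202, Bola1, S1pr1, Ciart, Celsr2 and Sema6c. Bola1, a mitochondrial protein gene, had 32.7 and 5.13 CPM in InsDel7to10, against 1.80 to 23.9 CPM (median 17.5) in the others. Sf3b4, a subunit of the spliceosomal SF3b complex, had 170 and 85.5 CPM in InsDel7to10, against 41.7 to 164 CPM (median 104) in the others, and with replicate 2 alone its shift was -0.20. A total of 114 of the 149 genes reached the midpoint with either InsDel7to10 library taken alone.

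Since the members moved together, their promoters were compared in the RefSeq table of mouse promoters (GRCm38.p6, the assembly of mm10, 250 bases before to 50 bases after the start), in which 123 of the 149 genes were found. Both strands were searched. The GC box GGGCGG, a common element of promoters of widely expressed genes, was in 73 of the 123 (59.3%), against 68.9% of 8398 promoters of genes at 5 CPM or more and 35.9% of all 27025. The CCAAT box, searched as CCAAT, was in 39.8% of the 123, against 39.8% of the expressed genes and 37.9% of all. The TATA box, searched as TATAAA, was in 8.13%, against 5.92% and 14.2%. The median shift was 0.58 with a GC box and 0.61 without. The promoters below are those of the gene with the largest shift (Gstm5), of the highest and the lowest gene among the 38 least variable ones (Notch2 and Prpf38b) and of the gene with the lowest shift (Cgn), each 5′ to 3′ with GC boxes in capitals. Genes at both ends of the range held GC boxes.
Gstm5, chr3:107895604-107895903, plus strand: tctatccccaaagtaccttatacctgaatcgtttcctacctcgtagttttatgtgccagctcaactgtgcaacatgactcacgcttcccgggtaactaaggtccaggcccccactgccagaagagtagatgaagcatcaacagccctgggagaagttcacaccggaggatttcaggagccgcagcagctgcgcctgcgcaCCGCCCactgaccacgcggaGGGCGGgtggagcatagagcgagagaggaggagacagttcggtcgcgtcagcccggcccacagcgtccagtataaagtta
Notch2, chr3:98013288-98013587, plus strand: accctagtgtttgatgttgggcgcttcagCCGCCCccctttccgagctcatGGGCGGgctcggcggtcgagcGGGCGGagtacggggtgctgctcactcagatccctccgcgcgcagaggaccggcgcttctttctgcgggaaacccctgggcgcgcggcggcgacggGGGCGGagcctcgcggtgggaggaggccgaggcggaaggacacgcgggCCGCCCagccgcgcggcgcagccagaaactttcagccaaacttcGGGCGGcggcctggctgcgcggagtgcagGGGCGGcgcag
Prpf38b, chr3:108911680-108911979, minus strand: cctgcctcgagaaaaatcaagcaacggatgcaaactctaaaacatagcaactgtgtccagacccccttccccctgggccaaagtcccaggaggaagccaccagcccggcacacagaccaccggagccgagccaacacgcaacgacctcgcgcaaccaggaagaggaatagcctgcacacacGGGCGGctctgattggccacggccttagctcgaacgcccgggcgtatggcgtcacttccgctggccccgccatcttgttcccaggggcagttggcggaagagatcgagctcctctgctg
Cgn, chr3:94786433-94786732, minus strand: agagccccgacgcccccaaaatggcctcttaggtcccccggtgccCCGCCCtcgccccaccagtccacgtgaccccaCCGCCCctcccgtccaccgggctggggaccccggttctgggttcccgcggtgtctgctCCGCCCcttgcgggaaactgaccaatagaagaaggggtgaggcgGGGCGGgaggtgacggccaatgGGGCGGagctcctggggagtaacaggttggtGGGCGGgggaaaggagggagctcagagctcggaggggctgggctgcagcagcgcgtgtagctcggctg

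Whether the same genes moved in comparisons that played no part in drawing the stretch was tested with edgeR's quasi-likelihood F-test, with Benjamini-Hochberg adjustment over all genes and a threshold of 0.05. In the contrast that did play a part, InsDel7to10 over the mean of the other 7 lines at 120h, 55 of the 149 genes were called higher, where 3.04% of the 17769 genes tested were. The choice of the stretch fixed that outcome, so nothing is read from the count, which was 1 without InsDel7to10 replicate 1.

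Between other lines the median fold change of the 149 genes lay between -0.00 and 0.06. InsDel5to10 over InvClone2 (2 libraries each, all ISML_third at 120h) gave a median fitted log2 fold change of 0.03 over the 149 genes, against -0.01 over all genes. No gene of the 149 was called by edgeR, where 0.152% of all genes were, and DESeq2 called 1. An unadjusted p under 0.05 in edgeR was found for 9 of the 149 (6.04%), against 6.53% of all genes. The nearest to the threshold was Car14, with 171 and 164 CPM in InsDel5to10, against 115 and 98.9 CPM in InvClone2, a fitted log2 fold change of 0.64 ± 0.14 (SE; edgeR adjusted p = 0.20). Ins over Del (3 libraries each at 120h) gave a median of -0.00 over the 149 genes and 0.00 over all genes. No gene of the 149 was called by edgeR or DESeq2, where edgeR called 0.00563% of all genes. None of the 149 had an unadjusted p under 0.05 in edgeR, where 1.06% of all genes did. The middle of the fold changes was narrow there, with percentiles 25 and 75 at -0.06 and 0.04.

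InvDel7to10 over InvClone1, averaged over 120h and 144h, sets the other line with Del(CBS7-10) against its parent allele. The median fitted log2 fold change was 0.06 over the 149 genes and 0.00 over all genes, and 86 of the 149 were positive. No gene of the 149 was called by edgeR, where 0.00563% of all genes were, while 33 (22.1%) had an unadjusted p under 0.05, against 13.7% of all genes, and DESeq2 called 3. The edgeR count of 0 rests on the InvClone1 libraries: it was 24, with 21 higher, without replicate 4 at 120h, and 7 without replicate 1 at 120h or without replicate 1 at 144h. Without the 6 libraries that stood apart, which leaves InvDel7to10 over InvClone1 at 120h alone, the median was -0.04, edgeR called none of the 149 genes, and 0.671% of them had an unadjusted p under 0.05, against 1.38% of all genes. The shares of all genes called by DESeq2 or without single InvClone1 libraries are not given here. Those counts are therefore not read as a trait of the stretch. Among the genes with the smallest adjusted p was Slc30a7, a zinc transporter gene. It had 36.8 and 38.3 CPM in InvDel7to10, against 18.7 to 48.4 CPM in the 6 InvClone1 libraries at these times, and the groups overlapped.

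**Figure D5:**
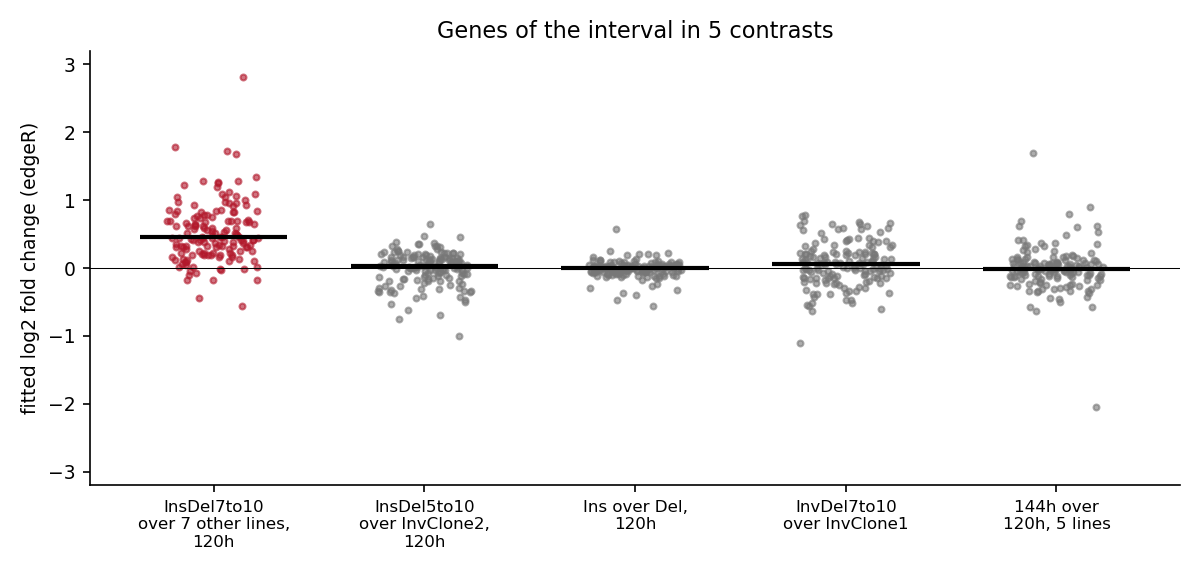
Fitted log2 fold change (edgeR) of the 149 genes in 5 contrasts, with 1 point per gene and a bar at the median. The points of InsDel7to10 over the other lines, the contrast from which the stretch was drawn, centre on 0.45, and those of the other 4 contrasts on 0.03, -0.00, 0.06 and -0.02.

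Time changed some genes of the stretch in either direction. In the 10 ISML_second libraries of 5 lines, 1 at 144h and 1 at 120h in each, 19 of the 149 genes passed (12.8%), where 15.1% of the 16043 genes tested did. Of the 149 genes, 12 were higher at 144h (8.05%), where 9.33% of the genes tested were, and 7 lower (4.70%), where 5.81% were, and the median fold change of the 149 was -0.02 on the log2 scale, against -0.01 over all genes. The largest rise was that of Celsr2, which had 195, 124, 226, 178 and 198 CPM at 144h in Del, Ins, InsDel8to10, InvClone1 and InvDel7to10, against 61.8, 44.8, 60.3, 54.3 and 62.6 CPM at 120h in the same lines. All 5 lines at 144h lay above all 5 at 120h (log2 fold change 1.69 ± 0.08, SE; edgeR adjusted p = 2.21e-05). Rhoc, a small GTPase of the actin cytoskeleton, averaged 27.1 ± 5.94 CPM at 144h and 14.4 ± 1.80 CPM at 120h (SD, n = 5 each; edgeR adjusted p = 0.000863). Tdrkh rose to 30.3 ± 4.52 CPM at 144h, against 18.6 ± 1.40 CPM at 120h, and the collagen gene Col11a1 to 34.7 ± 10.5 CPM at 144h, against 19.8 ± 2.84 CPM at 120h (SD, n = 5 each; edgeR adjusted p = 0.00314 and 0.0118).

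The genes lower at 144h included Gstm5 and Car14, which had some of the highest shifts in InsDel7to10. Gstm5 averaged 14.6 ± 2.06 CPM at 144h and 21.7 ± 1.47 CPM at 120h (SD, n = 5 each; edgeR adjusted p = 0.00542), lower in 5 of 5 lines. Car14 averaged 74.6 ± 14.9 CPM at 144h and 114.6 ± 7.19 CPM at 120h (SD, n = 5 each; edgeR adjusted p = 0.0125). Kcna2, a gene of few counts, averaged 0.671 ± 0.694 CPM at 144h and 2.34 ± 0.697 CPM at 120h (SD, n = 5 each; edgeR adjusted p = 0.0231). Of the 19 genes, 14 followed the shift in InsDel7to10, and 2 of the 8 genes at 0 or less, Celsr2 and Kcna2, were among the 19. Signalling and adhesion genes made up 6 of the 19 and 18 of the 149. Without InvClone1, whose 144h library stood apart in its mitochondrial share, 47 of the 149 genes passed, 27 higher and 20 lower. The share of all genes passing there is not given here, so the larger count is not read as a trait of the stretch.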

How the data were processed

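PolyA RNA from gastruloids of 8 mouse lines was sequenced in 26 libraries. The authors' deposited count table holds whole-number read counts per gene, not normalized, for 55141 genes, and their FPKM table (fragments per kilobase and unit of depth) gave positions for 55138. The submitters' processing notes name mm10, Cufflinks 2.2.1, STAR 2.7.10a and cutadapt 1.18. The strand setting of the counting is not stated. Libraries were ISML preparations, except that InvClone1 at 120h has 2 made with a TruSeq Stranded mRNA kit (replicates 2 and 3), per the labels. A total of 8 columns, 4 per deposited file, belong to no sample of the series and stayed unused.

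The 149 genes, the gene lists and the rule for named genes (the 10 largest and 10 smallest shifts, every gene at 0 or less, the 5 most abundant, the 5 nearest each edge on either side, up to 6 of each list, and up to 5 passing in each further contrast) were chosen with earlier results of these data known. Genes named outside it (Them4, S100a10, Bola1, Pip5k1a, Fam102b, Stxbp3, Tspan2, Foxa2 and the further genes passing with time) were chosen after their values were seen. A few genes that the rule names are not reported here. Lists of roles, proteasome subunits and cell markers were written by hand. In the lists of the 10 replication-type histone genes and the 21 epidermal differentiation genes that the table lists, none reached 5 CPM. The sclerotome and somite markers summed to 558 and 301 CPM in InsDel7to10, against 98.6 to 501 CPM in the others, and the pluripotency and germ cell markers to 12.6 and 5.86 CPM, against 7.12 to 104 CPM.

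Counts were scaled by TMM and tested with edgeR (version 4.0.16, R version 4.3.3) by its robust quasi-likelihood F-test, after filtering at a minimum count of 10, with Benjamini-Hochberg adjusted p judged at 0.05. All 26 libraries entered 1 fit with terms for group and library name (17769 genes, 8 residual degrees of freedom). The stage comparison used 10 ISML_second libraries with terms for line and stage (16043 genes, 4 residual degrees of freedom). Groups of 1 library take their spread from the replicated ones. DESeq2 1.42.0, other scalings, filters, references and leaving out libraries were alternatives. Scripts were tested on simulated counts. The SD of log2 CPM used a pseudocount of 0.1.

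Replicates differed by 14.7 to 200.3 in chi-square per degree of freedom, beyond sampling noise, and each library was counted as 1 sample. The spread behind each p-value is that among these libraries, and it may be technical. A count of 0 allows up to 3 counts, 0.0795 to 0.160 CPM, for counting error only. Same-numbered Ins and Del libraries deviated together (r = 0.70, 0.48 and 0.85 over genes, with matching library names). Replicate 3 was the only ISML_second pair. Within ISML_first the differently numbered libraries gave r = -0.02 and 0.33. Whether the numbers pair these lines beyond the library name is therefore open.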

Additional observations from a re-analysis of the deposited data

Results flagged for a closer look

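Samples far from the rest of their group could be looked for only in InvClone1 at 120h, the group with 4 libraries, among 61 named genes and the 2 scores over the 149 genes. Of these 63 values 5 (7.94%), all of single genes, had a library whose gap to the nearest other was large against the range of the group, where chance gives about 1 in 20. In 3 of them the library was replicate 1, the ISML_third library: Nras had 389 CPM there, against 243 to 267 CPM in the other 3, and Sass6, a centriole assembly gene, 45.4 CPM, against 31.0 to 31.6 CPM. Vps72, a chromatin remodelling gene, had 53.0 CPM in replicate 1, against 137 to 145 CPM. Rbm8a had 228 CPM in replicate 2, a TruSeq library, against 193 to 197 CPM. Cgn had 14.1 CPM in replicate 4, against 5.50 to 6.37 CPM.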

How the results depend on the processing

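The median shift of the 149 genes was 0.58. It was 0.55 against the 5 other ISML_third libraries at 120h, 0.53 against InsDel5to10, 0.53 with counts over the column total, 0.47 and 0.43 with deposited FPKM and a pseudocount of 0.1 or 1, and 0.61 without the 6 libraries that stood apart, an alternative chosen after seeing the data. With a minimum mean of 1 CPM, of 20 CPM or none it was 0.55, 0.61 and 0.52. Leaving out single libraries gave 0.57 to 0.61. Over all other genes the median was 0.01 with TMM and -0.12 with FPKM and a pseudocount of 0.1. The count of genes above all other libraries was 86, and 100 to 102 with 1 InsDel7to10 library left out, which can only raise it. The lower edge ran from 93.97 to 94.56 Mb and the upper edge from 116.8 to 118.7 Mb with single InsDel7to10 libraries, and the upper edge was 116.8 Mb against ISML_third at 120h.

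The count of genes called in InsDel7to10 over the other lines was 55, and 1 to 60 with single libraries left out. It was 1 without InsDel7to10 replicate 1, and 16 to 36 without any 1 of the Ins, Del and InvClone2 libraries at 120h or of the TruSeq libraries. It was 19 without the library term, and 0 by edgeR within the ISML_third libraries at 120h (an alternative chosen after seeing the data, with fewer samples), where 79.9% had an unadjusted p under 0.05. Nothing is read from these counts, since the stretch was drawn from this contrast. InsDel5to10 over InvClone2 gave 0 calls, 1 with DESeq2, 3 without a filter on low counts and 0 to 0 with single libraries left out. Ins over Del gave 0 under every alternative run. InvDel7to10 over InvClone1 gave 0, 3 with DESeq2, 3 without a filter and 0 to 24 with single libraries left out. For 144h over 120h the count was 19, and 11 to 47 with single libraries left out: 47 and 45 without the 120h or 144h library of InvClone1, and 11 without either library of InsDel8to10 or of Del. It was 47 without InvClone1, chosen after seeing the data. The cause of these differences was not tested. The shares of all genes called under the alternatives are not given here. The changes in count are therefore not read as traits of the stretch.

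Blocking on the replicate number left 0 calls for Ins over Del and 45 for InsDel7to10, and gave 5 for InsDel5to10 over InvClone2, whose same-numbered libraries deviated together (r = 0.53) but share only a number over 2 pairs.

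Single genes changed sign. Celsr2 was at 0.77, 0.20 and 0.75 against ISML_third at 120h, all others at 120h and InsDel5to10. Kcna2 was at 0.32, 0.75 and 0.24 against the same sets and 0.99 without the 6 libraries, and leaving out single libraries it ran from -0.58 (InsDel7to10 replicate 2) to 1.14 (InvClone1 at 96h). S1pr1 was at 0.71, 0.23 and 0.95, and -1.43 to 0.30 without InsDel7to10 replicate 1 or 2. Gm4332 was at -0.045 against InsDel5to10. Without InsDel7to10 replicate 1 or 2, Sf3b4 was at -0.20 and 0.80, and Atxn7l2 at -0.046 and 0.91. The effect of depth was not tested. In the library with the fewest counts, 18746411, a count of 0 allows up to 0.160 CPM.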

Other observations

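The Y-linked genes Ddx3y, Uty, Kdm5d and Eif2s3y, a further readout by chromosome, summed to 0.0556 and 0 CPM in the 2 InsDel7to10 libraries. The same sum was 153 to 161 CPM in InsDel5to10 and InsDel8to10, 76.3 to 121 CPM in Ins and Del, and at most 0.241 CPM in InvClone1, InvClone2 and InvDel7to10, so near-absence of these transcripts was shared with lines that lack the chromosome 3 shift.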
